A study of Homo sapiens with 4 samples.

Results

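The nuclear genes for the subunits of oxidative phosphorylation were described by the histone marks at their promoters in MHCC97L cells. Members were the nuclear protein-coding genes whose symbols begin with NDUF and A, B, C, S or V and a digit (complex I), are SDHA to SDHD (complex II), or begin with UQCR (complex III), COX4 to COX8 (complex IV) or ATP5 (complex V). The rule used no measured value and found 87 of the 19974 protein-coding genes on chromosomes 1 to 22 and X: 37 for complex I, 4 for complex II, 9 for complex III, 17 for complex IV and 20 for complex V. In the gene table used here NDUFA4 and NDUFA4L2 carry the symbols COXFA4 and COXFA4L2, so the rule does not take them. Their values are given with the isoform pairs.

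Oxidative phosphorylation takes place in the inner mitochondrial membrane. Complexes I and II pass electrons to ubiquinone, complex III hands them to cytochrome c, complex IV reduces oxygen, and complex V, the ATP synthase, uses the resulting proton gradient to make ATP. Most subunits are needed in nearly every cell type, but several complex IV subunits exist as pairs of genes, one commonly expressed and one restricted to muscle, testis, lung or low oxygen. H3K4me3 is a mark of promoters, H3K27ac of active promoters and enhancers, and H3K4me1 of enhancers and promoter flanks.

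The study mapped these 3 marks by chromatin immunoprecipitation and sequencing in MHCC97L, an established human hepatocellular carcinoma cell line labelled wild type. The cells were untreated and grew at 37 °C and 5% CO2 in DMEM with 10% fetal bovine serum. Each mark had 1 library of 1 cell line, and the fourth sample, Input, was not analysed here. On the chromosomes used the lists held 46078 H3K4me3, 70028 H3K27ac and 86366 H3K4me1 summits, each with a −log10 score made by the authors. The read depth is unknown, and with no replicates no test was made: the values describe these libraries, and intervals are 95% Wilson intervals for counting error only. Of 10 hepatocyte markers 4 had both H3K4me3 and H3K27ac at a gene boundary (among them FGA, TF and HNF4A), while ALB, APOA2 and TTR lacked all 3 marks across the gene and APOA1 had H3K4me3 alone, at a score of 1.80. Among markers of other cells, 0 of 6 stromal and endothelial genes and 1 of 4 blood genes (CD68) had both marks at a boundary. TF has boundaries of TOPBP1 and LOC124909487 within 1000 bp of its own, and CD68 has that of EIF4A1. The marks counted for TF and CD68 may therefore not be theirs alone. PECAM1 had H3K27ac at a boundary at 43.9, and both PECAM1 and PTPRC had H3K4me3 (25.4 and 7.29) and H3K27ac (72.0 and 38.8) in the gene.

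Most subunit genes carried an active promoter pattern. H3K4me3 lay within 1000 bp of a gene boundary at 73 of the 87 members (83.9%, interval 74.8% to 90.2%), beside 56.8% of all protein-coding genes. H3K27ac did so at 74 members (85.1%, 76.1% to 91.1%), beside 54.1%. Both marks at the same boundary, called the pair below, were found at 71 members (81.6%, 72.2% to 88.4%), beside 47.4%. H3K4me1 lay at a boundary of 7 members (8.05%, 3.95% to 15.7%), beside 12.4%, and 10 members (11.5%, 6.36% to 19.9%) had none of the 3 marks there, beside 35.2%. A search of the whole gene with 1000 bp on either side raised these counts: 79 members had H3K4me3 (90.8%, beside 69.0%), 79 had H3K27ac (90.8%, beside 64.5%), 77 had both (88.5%, beside 61.2%), 19 had H3K4me1 (21.8%, beside 40.4%) and 5 had no mark (5.75%, beside 25.7%). The pair was thus the common state of these genes, and at the boundaries the members' intervals for the pair and for no mark lay clear of the shares over all genes, while the H3K4me1 interval did not.

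**Figure D1:**
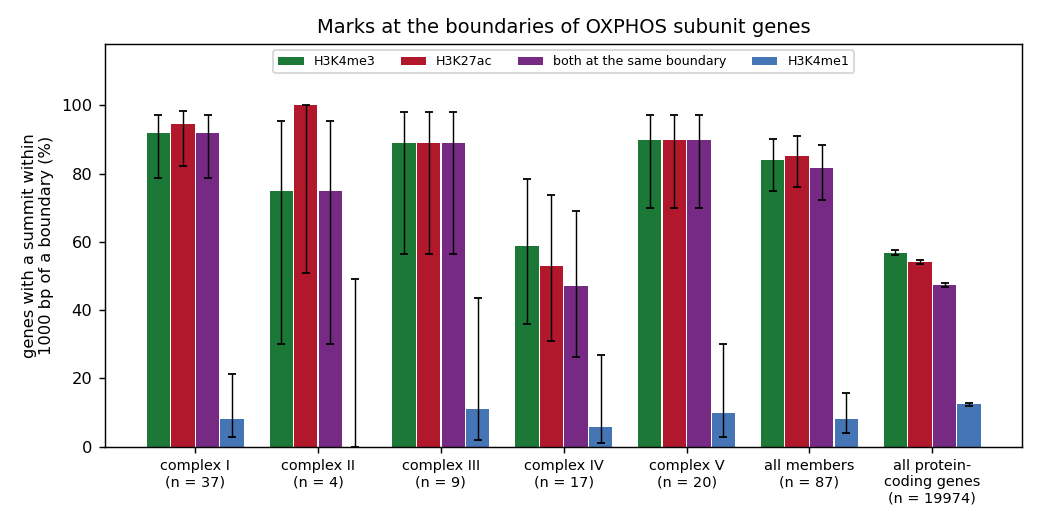
Share of genes (percent, y axis) with a summit within 1000 bp of a boundary, for H3K4me3, H3K27ac, both at the same boundary, and H3K4me1, by complex, for all 87 members and for all protein-coding genes; bars are shares and error bars 95% Wilson intervals for counting error. Complex I stands at 91.9% for the pair and complex IV at 47.1%.

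A boundary is either end of a gene, so the count was repeated at the transcription starts listed by RefSeq, which were given for 70 members. Within 1000 bp of such a start, 66 of the 70 had H3K27ac (94.3%, beside 57.6% of the 15812 protein-coding genes with a listed start) and 64 had H3K4me3 (91.4%, beside 62.0%). The pair stood at a start of 62 members (88.6%, 79.0% to 94.1%), beside 53.1%, and 2 members had no mark there (2.86%, beside 32.7%). Among the 65 of these members that are neither restricted isoforms, copies nor readthrough entries, all 65 had H3K27ac at a start and 61 had the pair. The other 4, NDUFB10, NDUFB11, SDHA and COX4I1, had H3K27ac at the start with H3K4me3 further away.

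The marked members ranked high within the H3K4me3 list, and less so within the H3K27ac list. The best H3K4me3 score at a boundary had a median of 66.1 over 73 members (range 13.1 to 103, quartiles 53.4 and 82.1), beside 52.1 over all protein-coding genes with one there. That median exceeded 91.9% of all H3K4me3 summits, and 67 of the 73 members (91.8%) lay in the top 20% of the list, beside 64.3% of the marked protein-coding genes. The best H3K27ac score had a median of 34.7 over 74 members (10.5 to 79.4, quartiles 23.6 and 48.7), beside 30.1, with 50 members (67.6%) in the top 20% of that list, beside 55.8%. Members with stronger H3K4me3 tended to have stronger H3K27ac: across the 71 members with the pair Spearman's rho was 0.54, and across the 9463 protein-coding genes with it 0.43. These points share their libraries, members are not independent replicates, and many scores are tied.

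**Figure D2:**
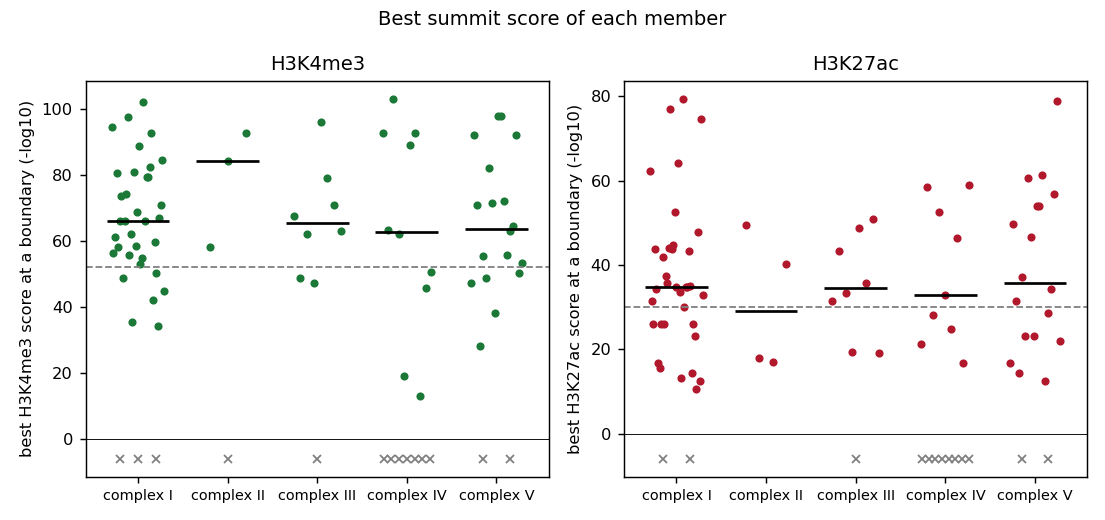
Best summit score at a boundary (−log10, y axis) of each member for H3K4me3 (left) and H3K27ac (right), by complex; points are genes, solid lines medians of the marked members, the dashed line the median of all protein-coding genes with a summit there, and grey crosses members with none. The 2 panels are scores from different lists, so heights are not comparable between them; complex IV has the most crosses.

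Complex I oxidises NADH and is the largest of the 5. The pair stood at 34 of its 37 genes (91.9%, 78.7% to 97.2%), and 36 of 37 had both marks when the whole gene was searched (97.3%). Among the genes for its catalytic core, NDUFV1, which binds the flavin that takes electrons from NADH, scored 70.9 for H3K4me3 and 12.5 for H3K27ac. NDUFV2, an iron–sulfur subunit beside it, scored 84.5 and 74.6. NDUFS1, the largest iron–sulfur subunit, scored 82.5 and 43.3, and its window is shared with EEF1B2. Further core genes spread across most of the range of complex I. NDUFS3, next to KBTBD4, scored 92.6 for H3K4me3 and 35.1 for H3K27ac. NDUFS8, an iron–sulfur subunit, scored 67.0 and 47.9. NDUFS7, which carries the last iron–sulfur cluster before ubiquinone, scored 34.2 and 10.5. The scores of NDUFS7 were the lowest of complex I for both marks.

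The accessory subunits of complex I (NDUFA, NDUFB, NDUFC and the remaining NDUFS and NDUFV3 genes) surround this core. NDUFB9 had the highest scores of complex I for both marks, 102 for H3K4me3 and 79.4 for H3K27ac, in a window shared with MTSS1 and TATDN1. NDUFA9, next to AKAP3, reached 97.5 for H3K4me3, and NDUFA1, next to RNF113A, 94.5. At the low end NDUFB2 scored 35.3 for H3K4me3 but 43.9 for H3K27ac, above the H3K27ac median of complex I, 34.7. A low place in the H3K4me3 list was therefore not always matched in the H3K27ac list. Among the accessory subunits, NDUFA5 and NDUFB10 lacked the pair at a boundary.

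Complex II, succinate dehydrogenase, links the citric acid cycle to the chain. SDHD, a membrane anchor whose window is shared with TIMM8B, scored 92.6 for H3K4me3 and 40.3 for H3K27ac. SDHC, the other anchor, scored 84.2 and 16.9, and SDHB, the iron–sulfur subunit, 58.1 and 18.0. SDHA, the flavoprotein, had H3K27ac at the boundary with the highest score of the complex, 49.4. Its H3K4me3 summit, at 84.1, lay 1378 bp downstream of the listed start, so the pair was counted at 3 of 4 genes and in all 4 when the whole gene was taken. SDHA lies head to head with CCDC127.

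Complex III passes electrons from ubiquinol to cytochrome c, and 8 of its 9 genes had the pair (88.9%, 56.5% to 98.0%). The 2 core proteins stood at opposite ends: UQCRC2 had the highest H3K4me3 score, 96.0, with 48.9 for H3K27ac, and UQCRC1 the lowest, 47.2, with 19.3. UQCRFS1, the Rieske iron–sulfur protein, scored 79.2 and 35.8. UQCRH, the hinge protein next to LRRC41, had the highest H3K27ac score, 51.0. The ninth gene, UQCRHL, a copy of UQCRH 276 bp long, had no summit of any mark.

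Complex V makes ATP, and 18 of its 20 genes had the pair (interval 69.9% to 97.2%). Its catalytic head includes ATP5F1A and ATP5F1B. ATP5F1A, next to HAUS1, scored 47.4 for H3K4me3 and 16.7 for H3K27ac at a boundary and 67.7 and 37.3 in the gene. ATP5F1B, next to BAZ2A, scored 92.1 and 49.8. ATP5F1D, of the central stalk, had the lowest H3K4me3 score of the complex, 28.2, with 14.3 for H3K27ac. In the membrane part ATP5MF, next to CPSF4, had the highest H3K4me3 score at a boundary, 97.8. Its summit is also counted for the readthrough entry ATP5MF-PTCD1. The c-ring genes ATP5MC1, ATP5MC2 and ATP5MC3 encode the same mature protein and all carried both marks, ATP5MC2 away from its boundaries: their H3K4me3 scores were 82.1, 72.6 and 71.6 and their H3K27ac scores 60.6, 81.3 and 46.6. ATP5PF, a stator subunit, had the highest H3K27ac score at a boundary, 78.9, with 50.3 for H3K4me3. That window is shared with GABPA, which encodes an ETS-family activator of genes of the respiratory chain, and the same 2 summits are counted for both genes. ATP5IF1, the inhibitor of the complex, scored 48.8 and 23.1.

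Complex IV, cytochrome c oxidase, had the pair at 8 of 17 genes (47.1%, 26.2% to 69.0%), a share like that of all protein-coding genes, 47.4%. Its marked genes had median scores of 62.6 for H3K4me3 (range 13.1 to 103) and 33.0 for H3K27ac (16.7 to 59.0). The medians of complexes I, II, III and V were 66.1, 84.2, 65.3 and 63.6 for H3K4me3 and 34.7, 29.1, 34.6 and 35.8 for H3K27ac. COX6A1 had the highest H3K4me3 score of all members, 103, with 52.5 for H3K27ac. COX5A and COX5B, which have no restricted partner among the pairs described here, scored 92.6 and 63.3 for H3K4me3 and 58.5 and 28.1 for H3K27ac. The genes without the pair were 6 restricted isoforms and COX4I1, COX7A2 and COX7A2L.

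Most of these genes belong to isoform pairs. Of 9 restricted isoforms or copies (COX4I2, COX6A2, COX6B2, COX7A1, COX7B2, COX8C, COXFA4L2, UQCRHL and ATP5MGL), 1 had the pair at a boundary (11.1%, 1.99% to 43.5%). Of their 9 commonly expressed partners, 7 had it (77.8%), and 8 had it at a listed start. Without the restricted isoforms, copies and readthrough entries the pair stood at 69 of 77 members (89.6%).

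**Figure D3:**
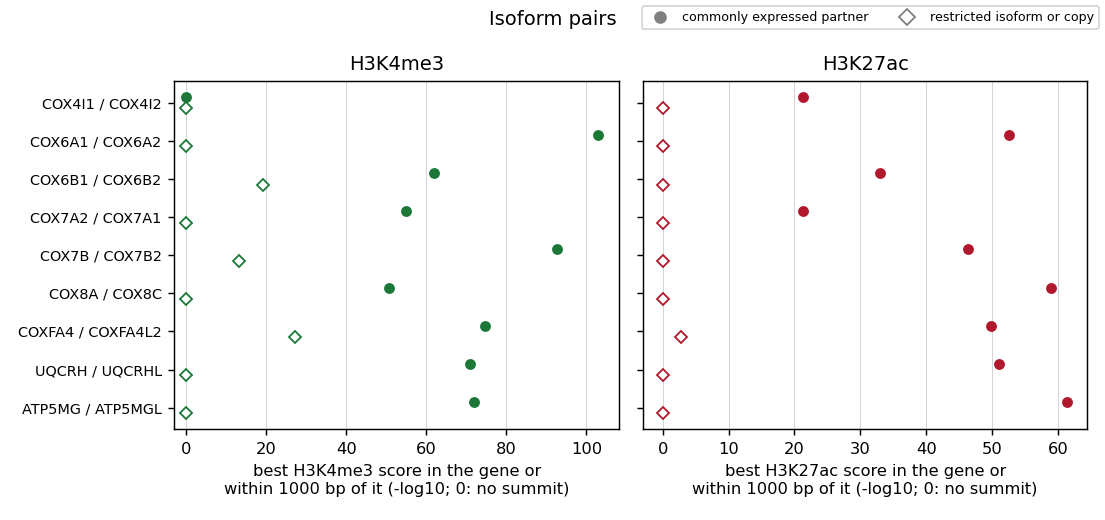
Best H3K4me3 (left) and H3K27ac (right) score over the whole gene with 1000 bp on either side (−log10, x axis) for 9 isoform pairs; filled circles are commonly expressed partners, open diamonds restricted isoforms or copies, and 0 stands for no summit. For H3K27ac every circle lies above 20 and every diamond below 3, while for H3K4me3 COX4I1 is at 0 with its partner.

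In the muscle isoforms no mark was found. COX6A2, the heart and skeletal muscle form of subunit 6A (chromosome 16, 31427731 to 31428360), had no summit, against scores of 103 and 52.5 for COX6A1 (chromosome 12, 120438113 to 120440730). COX7A1, the muscle form of subunit 7A, had none either, although it shares a boundary window with CAPNS1. Its partner COX7A2 scored 54.9 for H3K4me3 and 21.3 for H3K27ac at a listed start inside the gene. Among 5 other muscle genes (MYH7, ACTN2, CKM, TNNT2 and TNNT3) none had a mark at a boundary, and ACTN2 had H3K4me1 in the gene at 4.07.

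The testis isoforms were not alike. COX8C had no summit, while COX8A scored 50.6 for H3K4me3 and 59.0 for H3K27ac. COX6B2, next to GARIN5B, had H3K4me3 alone at 19.1, against 62.0 and 33.0 for COX6B1. COX7B2 had H3K4me3 alone at 13.1, with the nearest H3K27ac summit 554311 bp from its boundary, against 92.6 and 46.4 for COX7B. These 2 genes were the only members with H3K4me3 but no H3K27ac at a boundary, and their scores were the lowest H3K4me3 scores of all marked members. Of 5 testis genes (DDX4, DAZL, PRM1, TNP1 and ACRBP), 1 had a mark at a boundary, DDX4 with H3K4me1 at 4.94.

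The genes with low-oxygen isoforms gave 2 further patterns. COX4I2, the lung and low-oxygen form of subunit 4, had H3K4me1 alone at 3.76, while COX4I1 had H3K27ac at 21.3. COXFA4L2 (NDUFA4L2), a gene known to be induced in low oxygen, had its best boundary scores at opposite ends of the gene. H3K4me3, at 8.20, lay at the end with the listed start, where there was no H3K27ac. H3K27ac, at 2.14, and H3K4me1, at 8.56, lay at the other end, which is shared with SHMT2 and where the pair was counted. COXFA4 (NDUFA4) scored 74.6 and 49.8. The last copy, ATP5MGL, had no summit, against 72.0 and 61.4 for ATP5MG.

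The promoters of the COX6A and COX8 pairs are shown because the marked and unmarked gene of each pair differ in their CpG content. Each run is the 250 bases before the listed start, 5′ to 3′ on the strand of the gene, from RefSeq on GRCh38.p14, with each CpG in capitals: COX6A1 at chr12:120437863-120438112 (plus strand), COX6A2 at chr16:31428361-31428610 (minus), COX8A at chr11:63974370-63974619 (plus) and COX8C at chr14:93346932-93347181 (plus).
COX6A1: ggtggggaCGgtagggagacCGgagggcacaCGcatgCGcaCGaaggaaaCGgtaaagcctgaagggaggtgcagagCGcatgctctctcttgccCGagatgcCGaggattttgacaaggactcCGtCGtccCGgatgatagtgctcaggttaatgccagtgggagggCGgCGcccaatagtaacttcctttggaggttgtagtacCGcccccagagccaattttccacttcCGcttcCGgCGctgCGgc
COX6A2: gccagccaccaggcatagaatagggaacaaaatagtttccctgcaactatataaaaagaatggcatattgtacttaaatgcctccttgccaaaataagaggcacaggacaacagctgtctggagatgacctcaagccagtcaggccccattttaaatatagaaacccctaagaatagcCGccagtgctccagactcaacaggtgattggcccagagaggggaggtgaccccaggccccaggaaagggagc
COX8A: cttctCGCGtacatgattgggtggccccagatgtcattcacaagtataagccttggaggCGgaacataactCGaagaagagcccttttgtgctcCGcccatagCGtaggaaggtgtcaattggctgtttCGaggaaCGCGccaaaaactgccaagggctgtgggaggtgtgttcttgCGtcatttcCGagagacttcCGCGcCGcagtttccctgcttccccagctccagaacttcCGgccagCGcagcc
COX8C: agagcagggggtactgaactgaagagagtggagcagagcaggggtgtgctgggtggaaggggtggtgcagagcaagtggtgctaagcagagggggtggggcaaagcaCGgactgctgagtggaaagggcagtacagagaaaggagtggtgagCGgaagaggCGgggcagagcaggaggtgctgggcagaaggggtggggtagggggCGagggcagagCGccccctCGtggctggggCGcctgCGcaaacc
COX6A1 holds 19 CpG and COX6A2 holds 1, and COX8A holds 16 and COX8C 8. Over the RefSeq window of 250 bases before to 50 after a start, the ratio of observed to expected CpG was 0.868 for COX6A1, 0.247 for COX6A2, 0.793 for COX8A and 0.383 for COX8C. The median over the 70 members with a listed start was 0.855, beside 0.884 for all protein-coding genes with the pair at a start and 0.508 for those without it. A gene with several starts was counted by its window with the highest ratio. Several starts were listed for 9 of the 70 members and for 4036 of the 15812 protein-coding genes with a listed start. COX6A2, COX8C and COX7B2 (0.520) had the lowest ratios among the members, followed by NDUFB7 (0.573) and NDUFB8 (0.594), which both had the pair. Of the 5 restricted isoforms with a listed start, 3 had H3K4me3 there: COX7B2, COXFA4L2 (ratio 0.636) and COX6B2 (0.799). The commonly expressed gene did not have the higher ratio in every pair. COXFA4 (0.523) and COX6B1 (0.664) were below their restricted partners, while COX7B (0.979) was above COX7B2. COX6A2 and COX8C, with lower ratios, had no mark, and none of the 5 had H3K27ac at a start. Whether CpG content goes with the marks of these genes was not tested.

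In all, 14 members had no H3K4me3 at a boundary, and they fell into 3 kinds. The first kind had no mark at a boundary but both marks inside the gene. It included NDUFA5, COX7A2, COX7A2L and ATP5MC2, with best H3K4me3 scores there of 62.9, 54.9, 58.1 and 72.6 and H3K27ac scores of 12.5, 21.3, 71.0 and 81.3. NDUFA5 belongs to complex I, COX7A2 and COX7A2L to complex IV or its assembly into supercomplexes, and ATP5MC2 to the c-ring. These 4 genes had the pair at a listed start, so their promoters lie inside the outer limits of the gene. NDUFA5, for example, spans positions 123536997 to 123601651 of chromosome 7, and its H3K4me3 and H3K27ac summits lay 148 and 156 bp downstream of a listed start within that span. At the listed starts of COX7A2L the H3K4me3 score was 10.6, and its best one lay elsewhere in the gene.

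SDHA, NDUFB10 and COX4I1 formed the second kind, with H3K27ac at the start and H3K4me3 beyond the window. NDUFB10, an accessory subunit of complex I, had H3K27ac at 44.1, 161 bp downstream of its start. It had no H3K4me3 summit in the gene. Its nearest one, at 85.5, lay in RPS2, 2245 bp past the far end of NDUFB10 and 4682 bp downstream of its start. COX4I1, which encodes the common form of subunit 4, had H3K27ac at 21.3, 86 bp downstream of its start, and its nearest H3K4me3 summit, at 70.9, lay 1084 bp upstream in EMC8, with which it lies head to head. NDUFB11, next to RBM10, was a like case on the inner side: H3K4me3 at 62.0 was within the window of a boundary but not of its start, where H3K27ac scored 77.0. The remaining 6 genes, COX4I2, COX6A2, COX7A1, COX8C, UQCRHL and ATP5MGL, had neither H3K4me3 nor H3K27ac in the gene. Members just inside the window for H3K4me3 were NDUFA1 at 888 bp, NDUFB3 at 922 bp and UQCRFS1 at 989 bp. Those just outside were COX4I1 at 1084 bp, SDHA at 1333 bp and NDUFA5 at 1637 bp. For SDHA and NDUFA5 that summit, at 4.35 and 29.6, lay past the far end of the gene. It was 51759 and 22458 bp downstream of the nearest listed start.

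At the starts themselves both marks sat mostly on the transcribed side. The best H3K27ac summit lay a median of 120 bp downstream of the start over 66 members (quartiles −153 and 161), with 54 within 250 bp. Over the 9114 protein-coding genes with one the median was 122 bp, with 5742 within 250 bp. It was downstream at 45 of the 66 members (68.2%), beside 62.3%. The best H3K4me3 summit lay a median of 154 bp downstream over 64 members (113 and 351), with 32 within 250 bp. Over the 9800 protein-coding genes with one the median was 188 bp, with 3914 within 250 bp. The best H3K4me3 summit was downstream at 55 of the 64 members (85.9%), beside 78.0% of the protein-coding genes with one. Some genes held several H3K4me3 summits: NDUFV2 had 7, the readthrough entries NDUFC2-KCTD14 and ATP5MF-PTCD1 had 6 and 5, and no other member had more than 3. The readthrough entries share their best summits with NDUFC2 and ATP5MF, so the 73 members with H3K4me3 rest on 71 distinct summits.

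**Figure D4:**
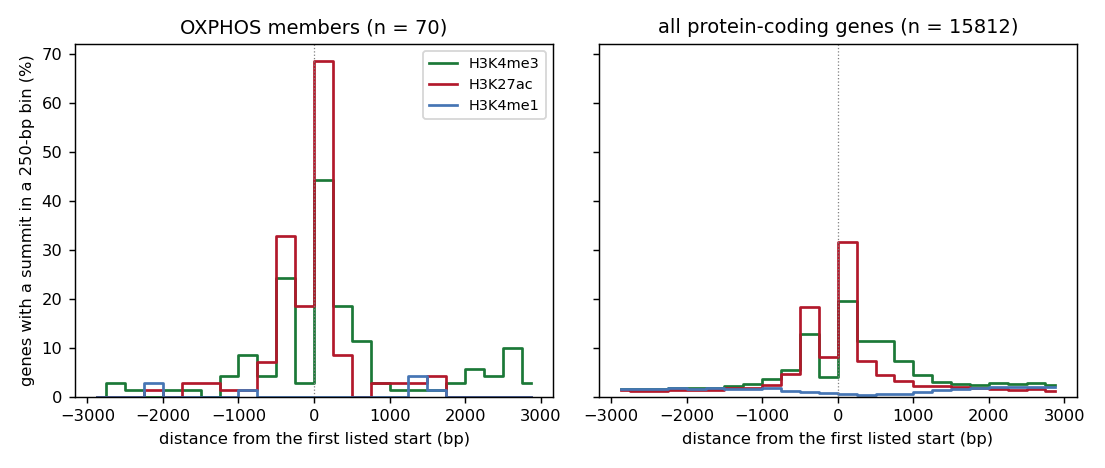
Share of genes (percent, y axis) with a summit in each 250-bp bin by distance from the first listed start (bp, x axis, positive downstream), for the 70 members with a listed start (left) and all 15812 such protein-coding genes (right); lines are the 3 marks. In the members H3K27ac peaks in the first bin downstream and H3K4me1 stays near 0 across the start.

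H3K4me1 was rare around the marked starts. It lay at a boundary of NDUFS7 (4.14), NDUFS8 (4.80), NDUFV2 (3.53), UQCR11 (7.19), COX4I2 (3.76), ATP5F1B (4.80) and ATP5MF-PTCD1 (6.29), where the number is the score. Among the 70 members with a listed start, 1 had it within 1000 bp of a start (1.43%, 0.253% to 7.66%, beside 7.60%). That interval just held the share over all genes. For the 62 members with the pair at a start the nearest H3K4me1 summit lay a median of 27377 bp away, beside 11823 bp for all 8393 protein-coding genes with the pair. Within 5000 bp of the start 11 of the 62 had one (17.7%, 10.2% to 29.0%), beside 37.5%. Within 2000 bp it was 5 (8.06%), beside 20.9%. Distances were taken from the closest listed start of a gene. Several starts were listed for 9 of the 70 members, beside 4036 of the 15812 protein-coding genes with a listed start. The part of this and of gene length in the distances was not tested.

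Distal sites with both H3K27ac and H3K4me1 were also uncommon. Counting such sites over 2500 bp from every gene boundary and giving each to the closest protein-coding gene, 14 of the 87 members had at least 1 (16.1%), beside 29.9% of all protein-coding genes and 34.9% of those with the pair. The 62 sites were uneven: UQCRFS1 had 35 and NDUFV2 had 8, and no other member had more than 3. The nearest gene need not be the one a site acts on. Members are also short genes, with a median length of 9242 bp beside 24170 bp, and the part of length in these counts was not tested.

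Many of these genes had another gene close to an end. Another protein-coding gene had a boundary within 1000 bp at 41 of the 87 members (47.1%, 37.0% to 57.5%), beside 28.6% of all protein-coding genes. Either end of a member could be the shared one, so this is not a count of shared promoters. The number was 22 of 37 in complex I, 2 of 4 in complex II, 3 of 9 in complex III, 4 of 17 in complex IV and 10 of 20 in complex V. Where strand was given for both genes, 20 of 70 members lay head to head with a neighbour (28.6%, 19.3% to 40.1%), beside 12.0%. Neighbours included RPS28 at NDUFA7, a gene for a ribosomal protein, EEF1B2 at NDUFS1, an elongation factor, and GABPA at ATP5PF. At such a window a summit cannot be given to one gene. The pair stood at 35 of the 41 members with a shared boundary (85.4%) and at 36 of the 46 without (78.3%).

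Promoter letters were read in the same RefSeq windows on both strands. GCGCATGCG, the core of the NRF1 site, was present at 11 of the 62 members with the pair at a start (17.7%, 10.2% to 29.0%), beside 4.91% of the 8393 protein-coding genes with the pair and 3.11% of all 15812 with a listed promoter. AAGATGGCG, a YY1 site, was present at 9 (14.5%, 7.83% to 25.3%), beside 5.46% and 3.21%. CCGGAAGT, the ETS site bound by GABPA, was present at 12 (19.4%), beside 11.8% and 6.98%, and its shorter core CCGGAAG, which lies inside it, at 20 (32.3%), beside 25.8% and 16.5%. At least 1 of these motifs was found at 33 of the 62 (53.2%), beside 33.1%. For NRF1 and YY1 the interval lay above the share among all genes with the pair, while for the ETS site (11.4% to 30.9%) and its core (22.0% to 44.6%) it held that share.

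The more general promoter letters gave another picture. The SP1 site was less frequent per gene than among all genes with the pair, and closer to their share per window. GGGCGG, the SP1 site, was present at 41 of the 62 members (66.1%, 53.7% to 76.7%), beside 79.1% of the genes with the pair and 64.2% of all with a listed promoter. CCAAT was present at 22 (35.5%), beside 44.5% and 42.1%, and TATAAA at 6 (9.68%), beside 8.04% and 12.4%. A gene counted if any of its listed windows held the letters, and a gene can have several windows. Counted per window, the SP1 site was in 64.0% of the 75 windows of these members. The share was 67.2% of the 12411 windows of all genes with the pair. For CCAAT the shares of windows were 33.3% and 35.5%, and for TATAAA 8.00% and 5.95%. A match is a description of letters and shows no binding.

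The YY1 letters mostly had one place. At 8 of the 9 members (88.9%, 56.5% to 98.0%) they lay on the coding strand within bases 1 to 30 from the start, counted by their first base. The share was 60.7% among the 458 protein-coding genes with the pair and the motif, and the members' interval held it. The span of bases 1 to 30 was not in the plan. These 8 stretches are shown to let the place be compared: bases 5 to 34 from the listed start, 5′ to 3′ on the strand of the gene, RefSeq on GRCh38.p14, with AAGATGGCG in capitals.
NDUFA6 (chr22:42090739-42090768, minus strand): ttgtggagtggatgctttggcAAGATGGCG
NDUFA7 (chr19:8321342-8321371, minus): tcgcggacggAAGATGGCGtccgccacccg
NDUFA9 (chr12:4649118-4649147, plus): tgggaaAAGATGGCGgctgccgcacaatcc
NDUFB8 (chr10:100529838-100529867, minus): cgtgaagaaggtgAAGATGGCGgtggccag
NDUFS4 (chr5:53560643-53560672, plus): tggcgtttgcctgcagcAAGATGGCGgcgg
NDUFS7 (chr19:1383911-1383940, plus): gaaggccgaggccAAGATGGCGgtgctgtc
SDHB (chr1:17053999-17054028, minus): ggagccAAGATGGCGgcggtggtcgccctc
UQCRC1 (chr3:48609613-48609642, minus): cagggccgactgcagctggAAGATGGCGgc
Of the 8 genes, 6 are of complex I, with SDHB of complex II and UQCRC1 of complex III. Their H3K4me3 scores ran from 34.2 at NDUFS7 to 97.5 at NDUFA9, and their H3K27ac scores from 10.5 at NDUFS7 to 41.8 at NDUFA7. The letters hold an ATG, and coding sequence was not analysed here.

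The NRF1 and ETS letters are shown at 1 member each. NDUFB4, an accessory subunit of complex I with 58.6 for H3K4me3 and 52.6 for H3K27ac, holds the NRF1 core on both strands in overlap. The run is the 250 bases before its start, chr3:120596086-120596335 (plus strand, RefSeq on GRCh38.p14), with the overlapping matches in capitals.
NDUFB4: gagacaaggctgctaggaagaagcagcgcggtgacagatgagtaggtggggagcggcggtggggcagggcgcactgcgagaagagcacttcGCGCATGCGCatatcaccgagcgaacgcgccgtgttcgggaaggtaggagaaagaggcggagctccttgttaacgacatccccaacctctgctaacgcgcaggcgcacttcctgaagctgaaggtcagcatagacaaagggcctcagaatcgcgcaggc
COX5B holds the ETS core upstream of its start, where H3K4me3 scored 63.3 and H3K27ac 28.1. The run is the 100 bases before the start, chr2:97645962-97646061 (plus strand, same source), with the core in capitals. A second match crosses the start and is cut by the end of the run.
COX5B: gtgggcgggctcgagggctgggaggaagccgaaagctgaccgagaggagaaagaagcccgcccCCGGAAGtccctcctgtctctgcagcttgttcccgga
In COX5B both summits lay downstream of these letters, H3K4me3 117 bp and H3K27ac 103 bp past the start.

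Most genes that build or regulate the complexes also carried the pair. It stood at a boundary of 44 of 46 assembly factors (95.7%, 85.5% to 98.8%), which insert cofactors and join subunits. The exceptions were NDUFAF4, a complex I factor with H3K27ac at 22.4 at a boundary and H3K4me3 at 42.7 in the gene, and COX19, a complex IV factor with H3K4me3 at 77.5 and no H3K27ac. Among 7 subunits and electron carriers outside the naming rule 5 had the pair (71.4%), among them CYCS, which encodes cytochrome c, at 96.0 and 51.0. ETFA had H3K4me3 at 53.0 and no H3K27ac, with H3K4me1 in the gene at 5.68. ETFDH, next to C4orf46 and PPID, had no H3K4me3 in the gene and H3K27ac at 23.2. ETFA and ETFDH take part in passing electrons from fatty acid oxidation to ubiquinone.

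Of 15 regulators of these genes and of mitochondrial transcription, 14 had the pair. NRF1 scored 83.4 and 34.3, YY1 64.4 and 43.3, and TFAM, which packages and transcribes mitochondrial DNA, 72.6 and 21.9. The exception, PPARGC1A, a coactivator of mitochondrial biogenesis, had H3K4me3 at 22.8 and no H3K27ac, and its relative PPARGC1B scored 29.2 and 7.62 at a boundary, in a window shared with PDE6A, with H3K27ac at 38.8 in the gene. As sets of like kind, 73 of 77 mitochondrial ribosomal genes (94.8%) and 78 of 90 genes for cytosolic ribosomal proteins (86.7%) carried it, so shares of this size were also found outside the respiratory chain.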

How the data were processed

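The authors deposited 1 list of peak summits for each of 3 marks, and the deposited score of each summit is a −log10 p-value or q-value; no source used here gives the choice between them or the use of Input as control. Bowtie, Picard, deepTools and MACS2 and the hg38 build are named in the submitters' processing notes, without versions. Left out were 185 H3K4me3, 273 H3K27ac and 61 H3K4me1 summits outside chromosomes 1 to 22 and X. The lowest scores were 1.31, 1.30 and 1.33. Scores were used only within a list, since they depend on depth and background.

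Genes came from RefSeq on GRCh38.p14, whose chromosome coordinates equal those of hg38. That gene table gives no strand, so a mark counted within 1000 bp of either boundary, and a second count used the starts of the RefSeq promoter windows (250 bases before to 50 after a start), which 70 of the 87 members have. Assignment was tested on simulated data. Counts, medians and 95% Wilson intervals were computed in Python 3.11.15 with NumPy 2.4.6 and SciPy 1.17.1. With 1 library per mark no test was possible.

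The members and gene lists (isoform pairs, pathway genes, ribosomal genes and markers of hepatocytes, stroma and endothelium, blood, muscle and testis) were chosen with earlier results of these data known. All list entries matched a gene, NDUFA4 and NDUFA4L2 by an older symbol. Named genes were the isoform pairs, the highest and lowest H3K4me3 score and highest H3K27ac score of each complex, members lacking H3K4me3 or only H3K27ac, members with H3K4me1, those with most H3K4me3 summits, and pathway genes without H3K4me3. Other members and pathway genes were added as examples of a role after their values were seen, as were the promoters shown. The planned comparison of isoform proteins was not run. Alternatives varied the window, place, score, shared boundaries and readthrough entries. Some items are not reported here.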

Additional observations from a re-analysis of the deposited data

How the results depend on the processing

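Of 98 alternative values for 14 results, 82 stayed within 1.5 times the main count, or within the spread over genes for a median, and 16 did not. Leaving out members with a shared boundary gave H3K4me3 at 37 of 46 members, H3K27ac at 36 and both at 36, with 14 of 15 in complex I, 5 of 6 in complex III, 8 of 10 in complex V and 0 of 6 restricted isoforms or copies. These counts fell because fewer genes were counted. H3K4me1 was counted at 16 members with a 2500 bp window, 19 anywhere in the gene, 0 at a score of at least 10 and 1 at a listed start. Members with no mark numbered 5 over the whole gene and 2 at a listed start. The pair at restricted isoforms, 1 gene in the main count (COXFA4L2), went to 0 with a 500 bp window, 0 at a score of at least 10 and 0 at a listed start. Counting COXFA4 and COXFA4L2 as members, an alternative chosen after seeing the data, gave the pair at 73 members and at 10 in complex IV. No paired analysis was possible because each mark has 1 library. Each list is 1 library of unknown depth, so a missing summit does not show that a mark is absent.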
